A study of Mus musculus with 6 samples.

Results

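The genes described here are 41 that code for enzymes of conjugation and for the antioxidant response of the liver, compared between ARSB-null and control mice. They are the cytosolic and microsomal glutathione transferases and the UDP-glycosyltransferases (UGTs) of families 2 and 3. The others are the enzymes that make and recycle glutathione, and NRF2 with its inhibitor KEAP1 and several of its target enzymes. They were chosen by gene symbol among the probe sets whose annotation gives exactly 1 symbol, and a gene with several such probe sets was read from the brightest, by the mean of its 6 arrays. By this rule 38 of the 41 genes were measured, of 19938 genes measured in all. Gsta1 and Gsta2 were read only by 4 probe sets that each carried several symbols, and Ugt2a1 only by 1 that also names Ugt2a2, so no value is given for these 3 genes.

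Hepatic tissue came from 3 ARSB-null and 3 control mice, with 1 array per liver. All were untreated males of 12 weeks on the C57BL/6J background; the ARSB-null mice were homozygous for a defective allele of the gene for arylsulfatase B (ARSB), the lysosomal enzyme that removes 4-sulfate groups from chondroitin 4-sulfate and dermatan sulfate, and the sources used here do not state that the controls were their littermates. The values are log2 signals of a whole-transcript mouse gene array, normalized by quantiles by the authors, and a difference of 1 on this scale is a 2-fold difference in signal. The mice of both groups are numbered 4, 5 and 6, and the labels do not say what a shared number means or that the samples are other than separate animals. The tissue was whole liver, so fewer cells of a type and less RNA per cell cannot be told apart.

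Glutathione transferases join the tripeptide glutathione to electrophiles, and UDP-glucuronosyltransferases join glucuronic acid to steroids, bilirubin, bile acids and drugs, which makes the products soluble enough to leave in bile or urine. Hepatocytes hold much of the body's supply of both kinds of enzyme. The transcription factor NRF2 (gene Nfe2l2) is held in check by KEAP1 and, once freed by oxidants or electrophiles, binds antioxidant response elements near the genes of glutathione synthesis, of several glutathione transferases and of quinone and thioredoxin reduction.

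The targeted gene and the tissue matched the labels. On the brighter of its 2 probe sets, Arsb had a log2 signal of 7.46 to 7.64 in the ARSB-null livers and 10.21 to 10.23 in the controls (log2 difference -2.64, adjusted p = 0.000639 from limma). The 7 measured hepatocyte markers, among them Alb, had a mean log2 signal of 13.76 to 13.83 in ARSB-null and 13.67 to 13.75 in control liver, far above the array medians of 6.5 to 6.6. Both arrays numbered 4 stood apart from the other 4 arrays on the first principal component (39.7% of the variance), and the second component (27.1%) set the genotypes apart. Values without both arrays numbered 4 are therefore given for each gene whose log2 difference they moved by over 0.1, and for some others.

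No gene of the set passed an adjusted p of 0.05 in limma over all 35556 probe sets, a threshold that 0.0197% of all probe sets passed, and 0 passed by the analysis that the study's methods name, adjusted likewise. The mean was higher in ARSB-null liver for 12 genes and lower for 26, and the log2 difference lay within 0.2 of 0 for 30 of the 38. At an unadjusted p under 0.05, 1 gene was higher, Gstt2, against 2.0% of all measured genes and 2.75% of all probe sets. At that level 5 UGT genes were lower, Ugt2b37, Ugt2b34, Ugt2b35, Ugt2b38 and Ugt3a1, against 3.80% of all measured genes and 3.19% of all probe sets. The values of the groups did not overlap for 6 genes that were higher (background 4.73% of genes and 5.14% of probe sets) and for 5 that were lower (background 8.32% and 6.78%). The median log2 difference was -0.04 over the 38 genes and -0.02 over all measured genes, of which 9017 had a higher and 10921 a lower mean. With 3 livers per group, an exact permutation test of a single gene cannot give a two-sided p under 0.1.

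**Figure D1:**
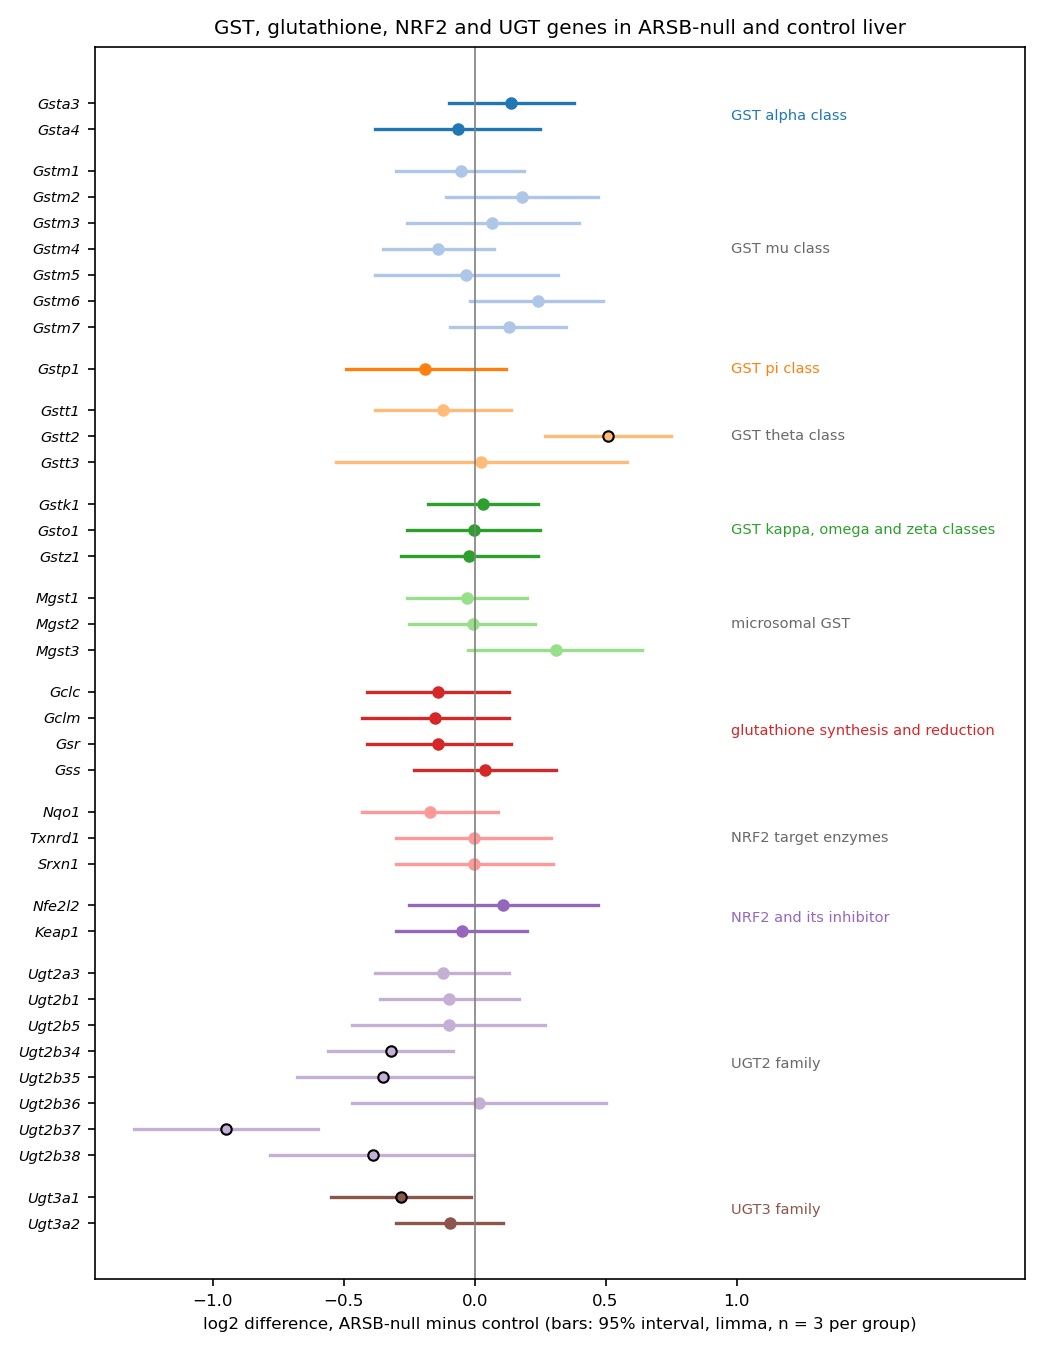
Log2 difference, ARSB-null minus control (horizontal axis), for each of the 38 measured genes, grouped by family (vertical axis), with 95% intervals from limma, and with a black rim where the unadjusted p was under 0.05. Ugt2b37 lies at -0.95 and Gstt2 at 0.51, while 30 of the 38 genes lie within 0.2 of 0.

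The UGTs of families 2 and 3 had the lower mean in ARSB-null liver for 9 of the 10 measured genes, with a median log2 difference of -0.20. The largest difference was that of Ugt2b37, a member of the Ugt2b cluster of steroid and drug glucuronidating enzymes on chromosome 5. The ARSB-null livers numbered 4, 5 and 6 gave a log2 signal of 7.73, 8.11 and 7.61, against 8.87, 8.69 and 8.73 for the controls of the same numbers, and the values of other genes are given in this order. All 3 ARSB-null livers lay below all 3 controls, and the ARSB-null liver numbered 5 was the nearest to them. Mean signals were 7.82 ± 0.26 (SD, n = 3) without ARSB against 8.77 ± 0.09 (SD, n = 3) in the controls, 1.93-fold lower (95% interval 1.51 to 2.46), with a log2 difference of -0.95 ± 0.15 (SE; limma adjusted p = 0.232 over all probe sets). When only the 21789 probe sets with 1 symbol were tested, of which 0.275% were called, the difference of Ugt2b37 passed the threshold (adjusted p = 0.029 from limma), and it did so also with the mouse number as a block (adjusted p = 0.025). Over all alternatives its adjusted p ran from 0.025 to 0.695 and its log2 difference from -1.09 to -0.85. Without both arrays numbered 4 the log2 difference was -0.85 (unadjusted p = 0.0074 from limma).

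The other 4 genes at an unadjusted p under 0.05 differed less. For Ugt2b34 the log2 signal was 12.68, 12.82 and 12.61 against 13.08, 12.99 and 13.00 in the controls. Again the groups did not overlap, and the fold was 1.25 lower (log2 difference -0.32 ± 0.10 (SE), limma adjusted p = 0.706). Ugt2b35 had 11.04, 11.44 and 11.24 in ARSB-null and 11.40, 11.70 and 11.65 in control liver, a log2 difference of -0.35 ± 0.14 (SE; limma adjusted p = 0.837). The brightest ARSB-null liver, numbered 5, lay just above the dimmest control, numbered 4. Ugt2b38 had 10.38, 10.77 and 10.45 against 10.65, 11.06 and 11.07, a log2 difference of -0.39 ± 0.17 (SE; limma adjusted p = 0.839), with the same overlap of the ARSB-null liver numbered 5 and the control numbered 4. Ugt3a1, whose family on chromosome 15 uses other sugar donors than glucuronic acid, had 11.69, 11.92 and 11.62 in ARSB-null and 11.99, 12.05 and 12.04 in control liver (log2 difference -0.28 ± 0.11 (SE), limma adjusted p = 0.821), with no overlap.

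These 4 differences kept their sign whichever liver was left out, but the unadjusted threshold was not always kept. Ugt2b34, whose log2 difference ran from -0.38 to -0.27 with a liver left out, had an unadjusted p of 0.0584 without the ARSB-null liver numbered 6 and 0.0609 without both arrays numbered 4, from limma. Ugt2b35 and Ugt2b38 lost the unadjusted threshold when the ARSB-null liver numbered 4 or 6, or the control numbered 5 or 6, was left out, with a log2 difference of -0.24 to -0.34 for Ugt2b35 and of -0.32 to -0.35 for Ugt2b38. Ugt3a1 lost it without any of the livers except the ARSB-null liver numbered 5, with a log2 difference of -0.22 to -0.30, and also without both arrays numbered 4 (unadjusted p = 0.102). The difference of Ugt2b37 kept an unadjusted p of 0.00216 or less whichever liver was left out.

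The other 5 genes of both families were nearer to 0. Ugt3a2, the neighbour of Ugt3a1, had a log2 signal of 12.60, 12.60 and 12.62 in ARSB-null and 12.69, 12.71 and 12.70 in control liver. Its groups did not overlap, at a log2 difference of only -0.093 (95% interval -0.30 to 0.11). The log2 difference was -0.12 for Ugt2a3, -0.10 for Ugt2b5 and -0.099 for Ugt2b1, and 0.018 for Ugt2b36 (95% interval -0.47 to 0.50). The sign of Ugt2b36, the 1 gene of the 10 with a higher mean, was not stable, since its log2 difference was -0.12 without both arrays numbered 4 and ran from -0.20 to 0.14 when single livers were left out. Within the numbered pairs, ARSB-null minus control, 8 of the 10 genes were lower in all 3 pairs. Of all 38 genes of the set, 12 were lower and 8 were higher in all 3 pairs. The share over all measured genes was not counted, so the count of 8 has no background to be read against. For Ugt2b37 the pairs differed by -1.14, -0.59 and -1.12 on the log2 scale, and for Ugt2b34 by -0.40, -0.17 and -0.39. The livers within a group were also ordered alike across these genes. The ARSB-null liver numbered 5 was the brightest of its group for 9 of the 10 genes, and the control liver numbered 4 was the dimmest of its group for 8 of the 10. The genes are therefore not independent readings of the genotype.

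**Figure D2:**
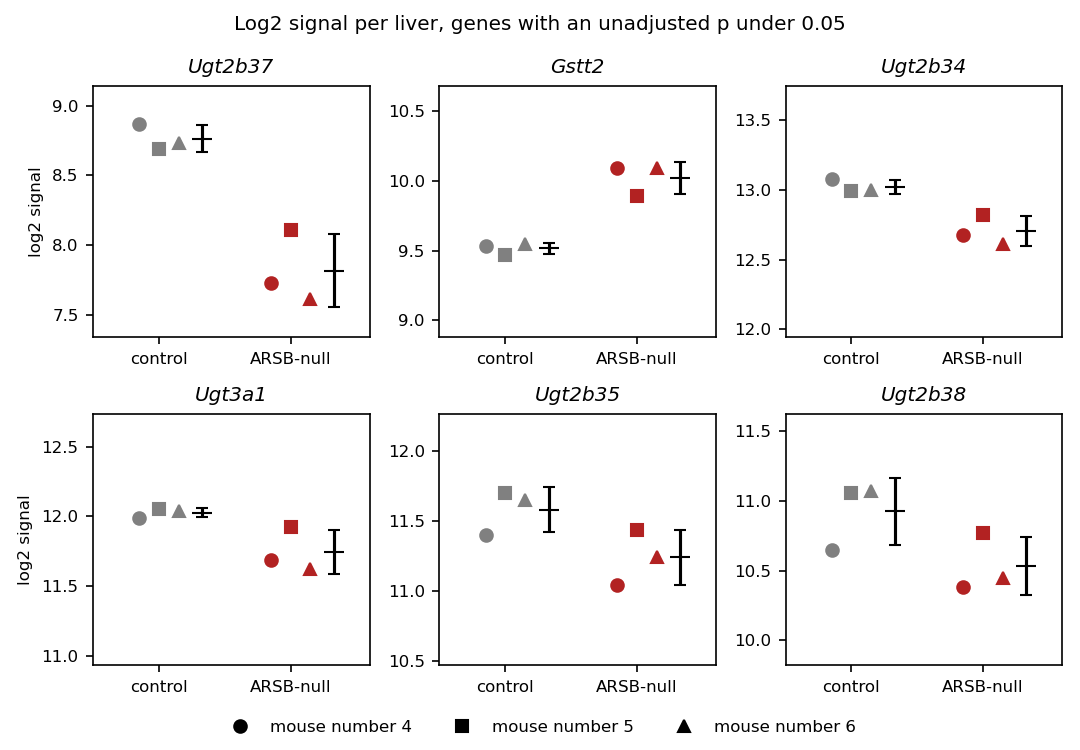
Log2 signal (vertical axes, each spanning 1.8 log2 units) of the 6 genes with an unadjusted p under 0.05 in each control and ARSB-null liver (horizontal axes), with the point shape giving the mouse number and black bars the mean ± SD of 3 livers. The 3 ARSB-null livers lie below all controls for Ugt2b37 and above them for Gstt2.

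The Ugt2b genes lie side by side on chromosome 5, in the order Ugt2b34, Ugt2b1, Ugt2b35, Ugt2b36, Ugt2b5, Ugt2b37, Ugt2a3, Ugt2b38 and Ugt2a1. The 100 bases before the start of the 7 measured Ugt2b genes are printed to show how alike the promoters of genes with unlike differences are. They are from RefSeq on GRCm38.p6, read 5′ to 3′ along the gene, and the capitals mark a stretch of the form GTTANNNNTTAAC. It resembles the palindrome recognised by the liver factors of the HNF1 family, but is not itself a palindrome. This form was chosen after these promoters were seen. The windows are chr5:86906938-86907037 (minus strand) for Ugt2b34, chr5:86926504-86926603 (minus) for Ugt2b1, chr5:87000760-87000859 (plus) for Ugt2b35, chr5:87092556-87092655 (minus) for Ugt2b36, chr5:87140341-87140440 (minus) for Ugt2b5, chr5:87254789-87254888 (minus) for Ugt2b37 and chr5:87424204-87424303 (minus) for Ugt2b38.
Ugt2b34: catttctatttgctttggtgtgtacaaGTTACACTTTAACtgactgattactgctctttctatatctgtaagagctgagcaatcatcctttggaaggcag
Ugt2b1: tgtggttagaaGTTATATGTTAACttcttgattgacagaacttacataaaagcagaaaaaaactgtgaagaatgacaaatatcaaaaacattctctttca
Ugt2b35: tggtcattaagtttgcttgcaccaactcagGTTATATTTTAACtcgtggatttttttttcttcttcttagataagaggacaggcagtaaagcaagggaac
Ugt2b36: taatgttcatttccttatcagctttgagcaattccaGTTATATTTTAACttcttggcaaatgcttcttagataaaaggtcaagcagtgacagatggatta
Ugt2b5: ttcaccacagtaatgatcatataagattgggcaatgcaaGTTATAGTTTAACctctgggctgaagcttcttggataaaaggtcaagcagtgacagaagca
Ugt2b37: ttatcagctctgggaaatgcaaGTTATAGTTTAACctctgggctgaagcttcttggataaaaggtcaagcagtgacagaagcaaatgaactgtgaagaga
Ugt2b38: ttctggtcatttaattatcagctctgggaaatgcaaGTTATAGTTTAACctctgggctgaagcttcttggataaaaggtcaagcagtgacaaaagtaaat

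The marked form, searched on both strands, was found in 8 of the 46 promoters (300 bases each) of the 36 genes with an entry. They were those of the 7 printed and of Ugt3a1. Of all 32851 promoters, 62 held it (0.189%). The form was chosen after the printed promoters were seen, so their matches were fixed in advance and these counts do not measure an enrichment. The form begins 78 bases before the start of Ugt2b37, 64 before that of Ugt2b38 and 61 before that of Ugt2b5. In global alignments of the 300-base promoters, with gaps allowed, Ugt2b37 shared 273 bases with Ugt2b38 and 247 with Ugt2b5, while Ugt2b5 shared 261 with Ugt2b38. The log2 differences of these 3 genes were -0.95, -0.39 and -0.10. The match was present both in genes with an unadjusted p under 0.05 and in Ugt2b1, Ugt2b5 and Ugt2b36, which had a larger p. A match is a description of the letters and not of binding. Probe sets of genes as alike as these can share signal, so the split of the difference among Ugt2b37, Ugt2b38 and Ugt2b5 is uncertain.

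The glutathione transferases had no common direction, with a higher mean in ARSB-null liver for 9 of the 19 measured genes, a lower mean for 10, and a median log2 difference of -0.0044. The largest difference was that of Gstt2, a theta class enzyme that acts on small halogenated and sulfate-bearing compounds and lies beside Gstt1 and Gstt3 on chromosome 10. The ARSB-null livers gave a log2 signal of 10.09, 9.89 and 10.09, against 9.53, 9.47 and 9.55 for the controls. All 3 ARSB-null livers were above all controls. Mean signals were 10.02 ± 0.11 (SD, n = 3) without ARSB against 9.51 ± 0.04 (SD, n = 3) in the controls, 1.42-fold higher (95% interval 1.2 to 1.68), with a log2 difference of 0.51 ± 0.10 (SE; limma adjusted p = 0.378). Tested among probe sets with 1 symbol only, it did not pass the threshold (adjusted p = 0.134 from limma, and 0.0652 with the mouse number as a block). The pairs differed by 0.56, 0.43 and 0.54, and leaving out any liver kept the log2 difference between 0.48 and 0.57.

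The other theta genes differed from Gstt2. Gstt1 had a log2 signal of 10.77, 10.70 and 10.93 in ARSB-null and 11.02, 10.83 and 10.89 in control liver (log2 difference -0.12, and -0.047 without both arrays numbered 4). Gstt3 had 9.90, 9.46 and 10.44 in ARSB-null and 9.91, 9.92 and 9.89 in control liver (log2 difference 0.026, 95% interval -0.53 to 0.58). The controls of Gstt3 lay close together while the ARSB-null livers lay on both sides of them. The median of the theta class therefore moved from -0.18 without the ARSB-null liver numbered 6 to 0.26 without that numbered 5.

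The mu class, a cluster of 7 genes on chromosome 3 that conjugates epoxides and quinones, had a median log2 difference of 0.068, with 4 genes higher and 3 lower. Gstm6 had a log2 signal of 11.56, 11.73 and 11.68 in ARSB-null and 11.30, 11.51 and 11.45 in control liver, a log2 difference of 0.24 ± 0.11 (SE; limma adjusted p = 0.855). Its groups did not overlap, and with the mouse number as a block its unadjusted p was 0.0397 (adjusted p = 0.567 from limma). Gstm7 had 11.61, 11.59 and 11.63 against 11.42, 11.56 and 11.47 (log2 difference 0.13), also without overlap. Gstm4 had 11.73, 11.77 and 11.82 against 11.94, 11.93 and 11.87 (log2 difference -0.14), with all ARSB-null livers below the controls. Gstm2 overlapped, with 10.38, 10.61 and 10.69 against 10.27, 10.49 and 10.40 (log2 difference 0.18). The log2 difference was 0.068 for Gstm3, -0.054 for Gstm1 and -0.032 for Gstm5. Without both arrays numbered 4 that of Gstm5 was -0.22 (unadjusted p = 0.135 from limma), and its numbered pairs differed in sign. The other probe set of Gstm3 gave a log2 difference of -0.037, so the probe sets of this gene do not share a direction. The class median of 0.068 is the value of Gstm3, so the median and the count by direction depend on the probe set read. Probe sets of such close paralogs may read one another's transcripts.

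In the alpha class, which also reduces lipid peroxides, Gsta3 had a log2 signal of 13.07, 13.13 and 13.15 in ARSB-null and 12.85, 13.05 and 13.04 in control liver, a log2 difference of 0.14 (95% interval -0.10 to 0.38). The groups did not overlap, by a narrow margin. Gsta4, which conjugates 4-hydroxynonenal, had 10.48, 10.57 and 10.81 against 10.52, 10.72 and 10.82 (log2 difference -0.063). Gstp1, the pi class enzyme, had 13.40, 13.50 and 13.31 in ARSB-null and 13.36, 13.72 and 13.69 in control liver (log2 difference -0.19, SE 0.13). The dim control was the liver numbered 4. Without both arrays numbered 4 the log2 difference of Gstp1 was -0.30, with an unadjusted p of 0.0449 and an adjusted p of 0.578 from limma.

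The kappa, omega and zeta classes hold a mitochondrial and peroxisomal enzyme, a thioltransferase and an enzyme of tyrosine breakdown. Gstk1 had a log2 signal of 12.40, 12.41 and 12.38 in ARSB-null and 12.36, 12.35 and 12.37 in control liver. These groups did not overlap, at a log2 difference of 0.031 (95% interval -0.18 to 0.24). Gsto1 had 10.25, 10.43 and 10.16 against 10.26, 10.29 and 10.31 (log2 difference -0.0044). Gstz1 had 11.68, 11.76 and 11.49 against 11.64, 11.75 and 11.61 (log2 difference -0.021). Both overlapped throughout.

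Among the microsomal transferases, membrane enzymes of which Mgst2 and Mgst3 also make leukotriene C4, Mgst3 had a log2 signal of 8.48, 8.30 and 8.32 in ARSB-null and 7.79, 8.22 and 8.16 in control liver (log2 difference 0.31 ± 0.14 (SE), limma adjusted p = 0.859). Its groups did not overlap, and the control numbered 4 lay apart from the other controls. Without both arrays numbered 4 the log2 difference of Mgst3 was 0.12. Mgst1 had 13.44, 13.40 and 13.32 against 13.32, 13.45 and 13.47 (log2 difference -0.028, and -0.10 without both arrays numbered 4). Mgst2 had 5.56, 5.37 and 5.51 against 5.52, 5.40 and 5.54 (log2 difference -0.008). Mgst2 was the only one of the 38 genes below the median of every array, where the signal may be mostly background.

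**Figure D3:**
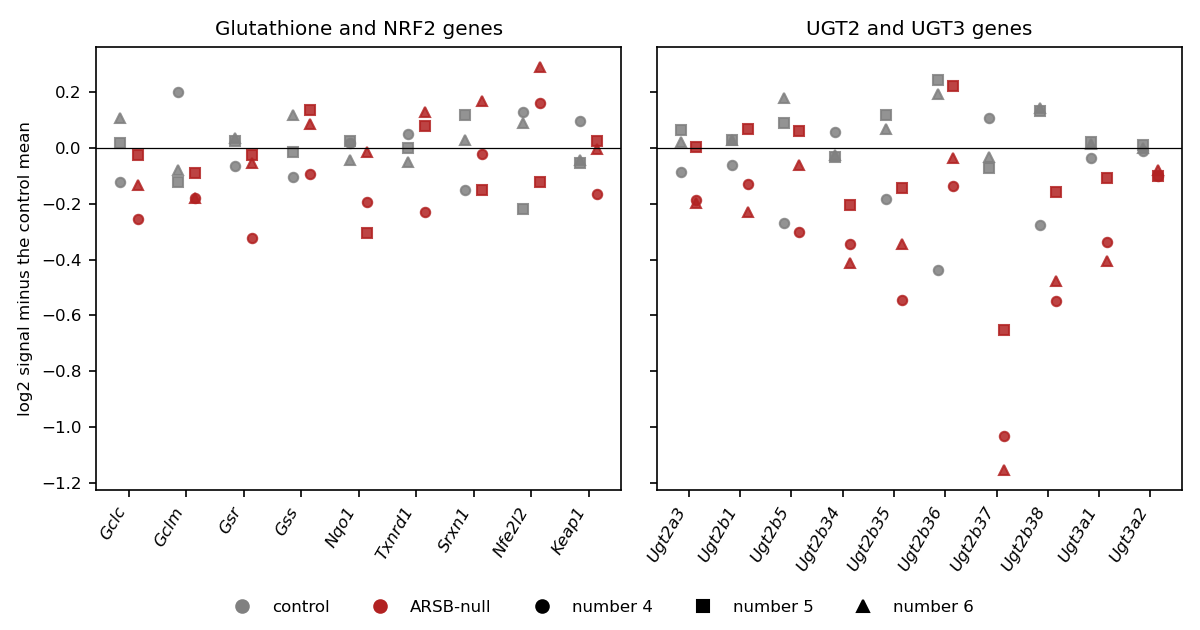
Log2 signal of each liver minus the control mean of the gene (vertical axis) for the 9 genes of glutathione and NRF2 and the 10 of the UGT2 and UGT3 families (horizontal axes), in grey for controls and red for ARSB-null livers, with the point shape giving the mouse number. The ARSB-null livers overlap the controls for every gene on the left, and on the right lie below all controls for Ugt2b34, Ugt2b37, Ugt3a1 and Ugt3a2.

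The genes of glutathione synthesis and reduction had a lower mean in ARSB-null liver for 3 of 4 genes, and none had an unadjusted p under 0.05. Gclc, the catalytic subunit of glutamate-cysteine ligase, the rate-limiting enzyme of glutathione synthesis, had a log2 signal of 12.08, 12.31 and 12.20 in ARSB-null and 12.21, 12.35 and 12.44 in control liver (log2 difference -0.14, 95% interval -0.41 to 0.13). Its modifier subunit Gclm had 12.33, 12.42 and 12.33 against 12.71, 12.39 and 12.43 (log2 difference -0.15, 95% interval -0.43 to 0.13). The control liver numbered 4 was the highest, and without both arrays numbered 4 the log2 difference of Gclm was -0.029. Gsr, the reductase that recycles oxidized glutathione, had 10.34, 10.64 and 10.61 against 10.60, 10.69 and 10.70 (log2 difference -0.14). Here the ARSB-null liver numbered 4 was the lowest, and without both arrays numbered 4 the log2 difference was -0.074. Gss, the synthetase of the final step, differed by 0.041.

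The target enzymes of NRF2 did not differ beyond the spread of the livers. Nqo1, the quinone reductase widely used as a readout of NRF2, had a log2 signal of 7.41, 7.30 and 7.59 in ARSB-null and 7.62, 7.63 and 7.56 in control liver (log2 difference -0.17, 95% interval -0.43 to 0.088). The ARSB-null liver numbered 6 lay within the range of the controls. Txnrd1, the cytosolic thioredoxin reductase, had 9.09, 9.40 and 9.45 against 9.37, 9.32 and 9.27 (log2 difference -0.0026, 95% interval -0.30 to 0.29, and 0.14 without both arrays numbered 4). Srxn1, which repairs overoxidized peroxiredoxins, had 9.26, 9.13 and 9.45 against 9.13, 9.40 and 9.31 (log2 difference -0.0028, 95% interval -0.30 to 0.30). Both intervals include differences of about 0.3 in either direction, so changes up to that size are not excluded for Txnrd1 and Srxn1. Nfe2l2 itself had 10.64, 10.36 and 10.77 in ARSB-null and 10.61, 10.26 and 10.57 in control liver (log2 difference 0.11, 95% interval -0.25 to 0.47). Keap1 had 8.11, 8.30 and 8.27 against 8.37, 8.22 and 8.23 (log2 difference -0.048, and 0.058 without both arrays numbered 4). NRF2 is regulated mainly through the stability of its protein, which these arrays do not measure.

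The core of the antioxidant response element, TGACNNNGC on either strand, was found in 8 of the 46 promoters (300 bases each) of the 36 genes with an entry, and in 4071 of all 32851 promoters (12.4%). The 8 promoters were those of 8 genes, Gsta3, Gstm5, Gstm7, Gclm, Mgst1, Nfe2l2, Txnrd1 and Srxn1. Gsta4, Gstt2, Gclc, Gsr and Ugt3a2 had no entry. The match with its flanks is printed for the 7 genes in which it lies before the start, to show the letters behind each match. They are from RefSeq on GRCm38.p6, 5′ to 3′ along the gene, with the core or its reverse complement in capitals. The windows are chr1:21240454-21240482 (plus strand) for Gsta3, chr3:107895802-107895830 (plus) for Gstm5, chr3:107931725-107931753 (minus) for Gstm7, chr3:122245413-122245441 (plus) for Gclm, chr6:138140461-138140489 (plus) for Mgst1, chr2:75704885-75704913 (minus) for Nfe2l2 and chr10:82859104-82859132 (plus) for Txnrd1.
Gsta3: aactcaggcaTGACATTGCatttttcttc
Gstm5: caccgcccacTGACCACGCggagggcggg
Gstm7: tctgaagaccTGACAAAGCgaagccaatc
Gclm: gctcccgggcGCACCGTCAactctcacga
Mgst1: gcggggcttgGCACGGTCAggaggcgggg
Nfe2l2: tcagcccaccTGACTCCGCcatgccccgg
Txnrd1: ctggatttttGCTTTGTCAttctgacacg

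The log2 differences of the 8 genes ran from -0.15 for Gclm to 0.14 for Gsta3, and none had an unadjusted p under 0.05. The absence of these letters from a window of this length says nothing about elements that lie farther away.

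Other genes of the same pathways were read from lists beside the 38, and limma called 0 of them over all probe sets. Of 21 other NRF2 targets, 1 was higher and 2 were lower at an unadjusted p under 0.05, with a median log2 difference of -0.077. They were Me1, the malic enzyme that supplies NADPH (log2 difference -0.72, with 11.91, 11.81 and 11.84 in ARSB-null and 12.27, 12.75 and 12.69 in control liver), Hmox1, heme oxygenase (0.33), and Pgd of the pentose phosphate pathway (-0.44). Of 11 partners and regulators of NRF2 none was at that level, with Maff at 0.27, Bach1 at 0.13 and Nfe2l1 at -0.098. Of 14 other glutathione genes none was either (median -0.11), with Glrx at -0.15, Esd at -0.15 and Chac2 at -0.23. In glucuronic acid supply and the other UGTs only 4 of 13 genes were measured, since the UGT1 genes share exons and a probe set. Ugdh, which makes UDP-glucuronic acid, the sugar donor of the UGT2 enzymes, was lower (log2 difference -0.30, adjusted p = 0.694 from limma), while Ugt8a stood at 0.19 and Ugp2 at 0.13. Of 10 nuclear receptors and liver factors, 1 was higher at an unadjusted p under 0.05, Nr1i3, the receptor CAR that controls many conjugating enzymes. It had a log2 signal of 9.98, 9.97 and 10.77 in ARSB-null and 9.52, 9.76 and 9.75 in control liver (log2 difference 0.56, adjusted p = 0.827 from limma). Nr1h4 stood at -0.16 and Hnf4a at -0.17.

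**Figure D4:**
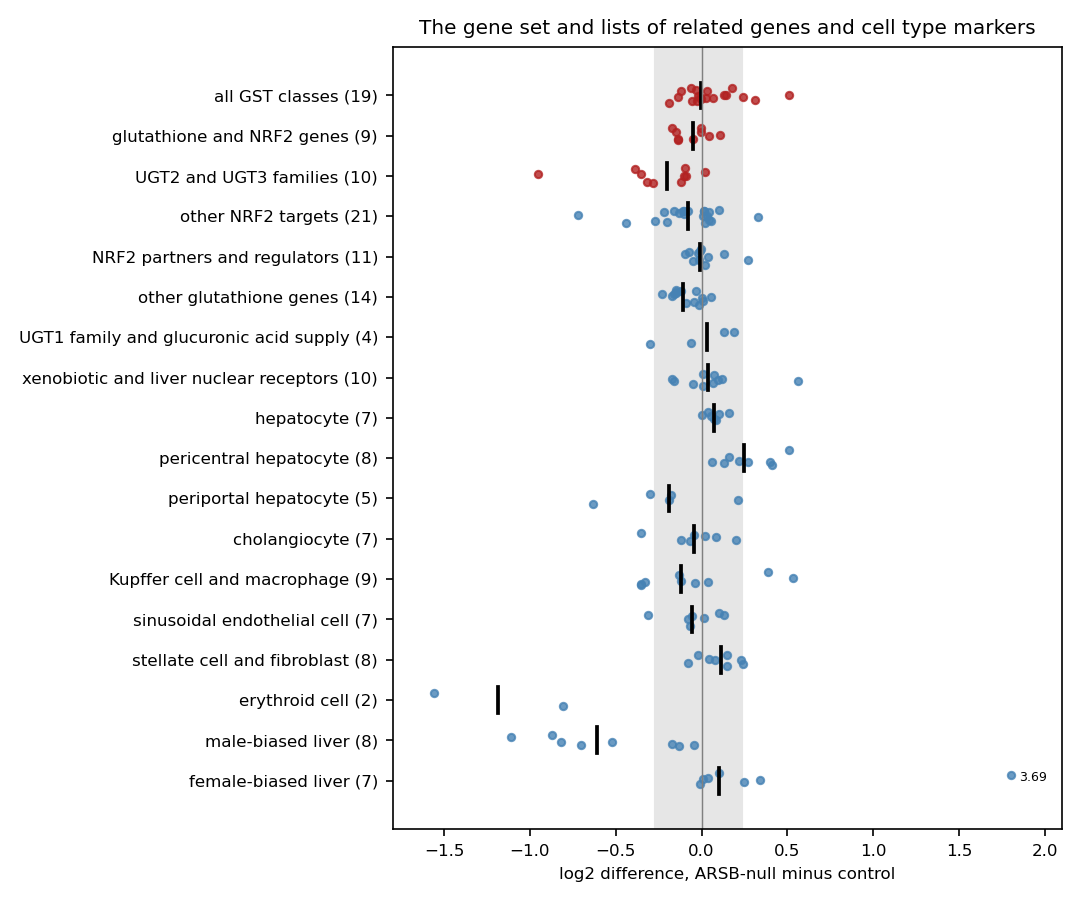
Log2 difference, ARSB-null minus control (horizontal axis), of every measured gene in each gene list (vertical axis), with a vertical bar at the median of the list and a grey band for the 5th to 95th percentile (-0.27 to 0.23) of all probe sets with 1 symbol. Cyp2b9, at 3.69, lies beyond the axis and is drawn at its edge with its value; the male-biased genes all lie to the left of 0.

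Of the genes that mark liver zones, sex-biased expression and the cell types of liver, limma also called 0 over all probe sets. Their values are given beside the results, and their part in the differences above was not tested. The 8 male-biased liver genes all had a lower mean in ARSB-null liver (median -0.61; 4 at an unadjusted p under 0.05), with the smallest p for Cyp7b1 (-1.11), Cyp4a12a (-0.82) and Selenbp2 (-0.70). Their mean log2 signal was 10.75 to 11.55 in ARSB-null and 11.61 to 11.85 in control liver. The livers did not all share the lower mean. For Hsd3b5 (-0.13) and Slco1a1 (-0.046) only the ARSB-null liver numbered 6 lay below the controls. For both genes the ARSB-null livers numbered 4 and 5 lay above the controls of the same number. Of 7 female-biased genes 6 had a higher mean (median 0.10), with Cyp2b9 at 3.69, Cyp2b13 at 0.25 and Acot3 at 0.34, and 4 of the 7 lay below the median of every array. Cyp2b9 had a log2 signal of 8.40, 10.59 and 11.87 in ARSB-null and 6.33, 6.85 and 6.62 in control liver, so its difference varied widely between livers. The groups overlapped for Cyp2b13 and Acot3. The 8 pericentral hepatocyte genes all had a higher mean (median 0.25; 3 at an unadjusted p under 0.05), with Oat at 0.51, Slc1a2 at 0.40 and Axin2 at 0.41, and their mean log2 signal was 11.17 to 11.41 against 10.97 to 11.12. Of 5 periportal genes 4 had a lower mean (median -0.19), with Cdh1 at -0.63, Cyp2f2 at -0.30 and Pck1 at 0.21, and a mean log2 signal of 11.63 to 11.78 against 11.86 to 11.94. Hepatocyte genes as a whole had a median of 0.073, with Hpd at 0.16, Apoa1 at 0.10 and Alb at 0.082.

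Other cell types were read from 5 further lists. Of 9 Kupffer cell and macrophage markers, 2 were higher and 2 lower at an unadjusted p under 0.05 (median -0.12), with Cd68 at 0.53, C1qa at 0.39 and Adgre1 at -0.35, and their mean log2 signal was 9.38 to 9.43 against 9.21 to 9.56. The median was -0.053 over 7 markers of sinusoidal endothelium (Lyve1 -0.31, Stab2 0.13, Fcgr2b -0.067), with a mean log2 signal of 9.29 to 9.42 against 9.37 to 9.43. It was 0.11 over 8 of stellate cells and fibroblasts (Reln 0.24, Des 0.15, Acta2 0.15), with a mean log2 signal of 8.70 to 8.79 against 8.64 to 8.68. It was -0.045 over 7 markers of cholangiocytes (Sox9 -0.35, Cldn7 0.20, Krt7 -0.12), with a mean log2 signal of 6.04 to 6.17 against 6.08 to 6.25, and 4 of these 7 lay below the median of every array. Both measured erythroid genes were lower, Slc4a1 at -1.56 and Alas2 at -0.81, with a mean log2 signal of 8.30 to 8.71 in ARSB-null and 9.42 to 9.85 in control liver.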

How the data were processed

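The authors hybridized labeled liver RNA of 6 mice to mouse gene arrays, applied quantile normalization and reduced the signals to 1 value per probe set. RMA and Partek appear in the submitters' processing notes; neither their versions nor the library of probe sets was given in the sources used here. The deposited values are log2 signals without detection calls, so a dim probe set cannot be told from background, and precision is set by the number of arrays. Quantile normalization hides any change common to most genes.

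Of 35556 probe sets, 21789 carried 1 gene symbol in GEO's platform annotation, 1621 carried several and 12146 were not listed there. The groups were compared over all 35556 by limma (version 3.58.1 in R 4.3.3, lmFit, eBayes, two-sided, Benjamini-Hochberg adjustment, adjusted p under 0.05). The procedure was tested on simulated data with noise independent between probe sets. That test therefore did not cover variation shared across genes, such as that of the arrays numbered 4. The study's methods name an analysis of variance per gene, which was run as an alternative, as were a replicate block, other scalings, other sets of probe sets, another prior, array weights and leaving out arrays. The members and the lists of pathway and cell type genes were chosen with earlier results of these data known. Each liver's value is given for genes with an unadjusted p under 0.05 or without overlap, and for the 3 genes with the smallest p of each family; of the other lists, the 3 genes with the smallest p are named.

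Whether mouse numbers pair the samples was checked by correlating deviations from the group means across probe sets. The correlation was 0.396, 0.159 and 0.193 for the numbers 4, 5 and 6, each above the 0.1 required. No label explains the numbers, so any pairing rests on this alone. It was used only for the differences within numbered pairs and for the alternatives with a block. All other p-values, errors and intervals are from fits without pairing. The ARSB-null mouse 6 correlated with the control 5 at 0.22, above its own number. For the ARSB-null mouse 5 and the control 6 the correlation was 0.0801. Deviations from a group mean cancel within the group. A difference shared by both arrays numbered 4 would alone make the arrays numbered 5 and 6 correlate across groups. The check therefore cannot decide whether the numbers 5 and 6 pair samples. Values within pairs and from fits with a block assume a pairing that was not established. Promoters are from RefSeq (GRCm38.p6), from 250 bases before to 50 after each start, and were aligned pairwise with Biopython. No coordinates are given for probe sets, since no build was found for the array.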

Additional observations from a re-analysis of the deposited data

How the results depend on the processing

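Over 17 alternatives, 643 of the values for single genes of the set kept their side of the threshold, 2 gained a call, 0 lost one and 0 called values reversed. Both gained calls were those of Ugt2b37 (log2 difference -0.95). Its adjusted p was 0.029 from limma on probe sets with 1 gene symbol, and 0.025 with the replicate block added. These calls brought the number of genes called lower from 0 to 1 in both. Both fits were repeated on fewer probe sets, so the variance that limma borrows across probe sets changed as well as the adjustment. The part of each in the gained calls was not tested. In 15 genes, each with a log2 difference of at most 0.11 in size, the sign turned in some alternative. For the numbers below the cause was not tested. Probe sets called over the whole table (2 higher, 5 lower) numbered 1 and 3 with the replicate block (paired by mouse number), 27 and 33 with 1-symbol probe sets only, 43 and 63 with both, 5 higher in the brighter part, 1 higher with array medians centred, 1 and 1 by one-way ANOVA, 14 and 14 with array weights, 1 and 0 without both arrays numbered 4, and 1 and 3 to 6 with one array left out. Genes of the set at an unadjusted p under 0.05 (1 higher, 5 lower) numbered 2 higher with the replicate block, which added Gstm6, with 1-symbol probe sets, in the brighter part, with quantile normalization repeated, with a trended robust prior and with array weights, 3 with 1-symbol probe sets and the block, and 4 by ANOVA. They numbered 3 lower with medians centred, and 1 to 2 higher and 1 to 5 lower with one array left out, where the lowest count, 1, came without the ARSB-null liver numbered 6 and 2 remained without the ARSB-null liver numbered 4 or the control numbered 5 or 6. Genes without overlap (6 higher, 5 lower) numbered 2 higher with medians centred and 14 lower without both arrays numbered 4. With 1 array left out they numbered 6 to 8 higher and 5 to 14 lower, where 14 came without the control numbered 4 and 12 without the ARSB-null liver numbered 5. Groups separate more easily when fewer arrays have to separate. The share over all genes was not counted in these settings, either for overlap or for an unadjusted p under 0.05. Neither kind of count can therefore be set beside the background shares given above. Medians over families moved to -0.052 for glutathione synthesis without both arrays numbered 4, to 0.14 for the microsomal class in the brighter part, which drops Mgst2, and, with one array left out, from -0.18 to 0.26 for the theta class and from -0.079 to 0.056 for the kappa, omega and zeta classes. In the 1-symbol fits both erythroid genes were called lower (2, also with the block), and with the block also 1 male-biased gene (Cyp7b1) and 1 periportal gene (Cdh1) lower and 1 female-biased gene (Cyp2b9) higher. Medians of lists moved for UGT1 and glucuronic acid supply to -0.064 in the brighter part, -0.023 with array weights, -0.020 without both arrays numbered 4 and -0.066 to 0.091 with one array left out. They moved for cholangiocytes to -0.24 in the brighter part, for other NRF2 targets to 0.0082 with array weights (-0.061 to 0.016 with one array left out), for other glutathione genes to -0.050 with array weights, and for periportal genes to -0.28 with array weights (-0.29 to -0.15 with one array left out). With one array left out they ran from -0.071 to 0.0086 for endothelium and from 0.066 to 0.13 for stellate cells. Signals near the array medians have no detection call, so small or absent differences there are not informative.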
